A study of Homo sapiens with 9 samples.

Results

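The genes described here are the targets of NRF2, the transcription factor encoded by NFE2L2, together with its regulators, in A549, a human lung adenocarcinoma cell line whose KEAP1 gene carries a mutation. They were found by symbol, as a list of 39 genes long described as NRF2 targets or regulators. Of the 39 symbols, 37 had a value, out of 31080 genes in the files, and all 37 were among the 21048 genes tested. NFE2L2 itself and GSTM3 were not analysed here, so the list holds no value for the transcription factor.

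A549 cells were transfected for 48 h with 50 nM of a scrambled siRNA, siCyclin K#1 or siCyclin K#2, and each group has 3 RNA sequencing libraries. The siRNAs siCyclin K#1 and siCyclin K#2 target different stretches of the mRNA of Cyclin K, encoded by CCNK, a cyclin that acts with transcriptional kinases such as CDK12 and CDK13. The RNA sequencing asked which transcripts change when Cyclin K is depleted, and all 9 libraries come from the same cell line, so the KEAP1 mutation is common to scrambled and Cyclin K depleted A549 cells. Nothing in the labels says that the libraries came from separate cultures, so the p-values measure only the spread between these libraries, which may be technical.

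NRF2 is held in the cytoplasm by KEAP1, an adaptor that hands it to the CUL3 ubiquitin ligase for degradation. When KEAP1 is oxidised, bound by an electrophile or mutated, NRF2 accumulates, pairs with a small MAF protein such as MAFG, and binds antioxidant response elements near genes for glutathione and thioredoxin metabolism, NADPH supply, iron storage and the clearance of foreign compounds. A549 is a standard model of this state, in which many of these genes run at a high level without added stress.

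Levels are FPKM, fragments corrected for gene length and for library depth, and so can be compared between genes. Recovered depth was 31333914 to 33768000 reads per library. The target CCNK had an FPKM of 6.90, 7.06 and 7.10 for scrambled siRNA, 0.891, 0.816 and 0.720 for siCyclin K#1, and 0.809, 0.920 and 0.802 for siCyclin K#2, a log2 fold change of -2.94 ± 0.10 (SE) over both siRNAs (limma adjusted p = 1.74e-07). The 5 epithelial markers summed to 132 to 152 FPKM in scrambled cells, 159.7 to 187 in siCyclin K#1 cells and 186 to 193 in siCyclin K#2 cells, nearly all of it KRT8 and KRT18. KRT8 was 1.72-fold and 1.76-fold of scrambled with the siRNAs and CDH1, at 1.19 to 4.6 FPKM, 2.37-fold and 1.05-fold, while EPCAM and KRT19 reached at most 0.279 FPKM in any library. The fibroblast markers summed to 1.91 to 2.32 FPKM in scrambled cells, 13.9 to 14.9 in siCyclin K#1 cells and 3.24 to 3.44 in siCyclin K#2 cells, nearly all of it COL1A1, with DCN and COL3A1 under 0.1. Of the blood markers, PTPRC reached at most 0.00685 FPKM and CD68, a lysosomal protein, ran from 30 to 30.7 FPKM in scrambled cells, 31 to 33.7 in siCyclin K#1 cells and 37 to 39 in siCyclin K#2 cells. The endothelial markers summed to at most 0.0445 FPKM in any library. Their part in the results was not tested.

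With scrambled siRNA the NRF2 genes lay high among all transcripts. The group means ran from 0.468 FPKM for GPX2 to 5897 for FTL, with a median of 55.1 over the 37 genes. The median gene of the list stood at percentile 97.4 of the tested genes, and 30 of the 37 stood at or above percentile 90. The 7 others were HMOX1, GCLC, ABCC3 and PIR between percentiles 86.4 and 89.9, and OSGIN1, CYP4F11 and GPX2 at percentiles 66.6, 48.7 and 37.5. These levels describe the list in A549 and have no comparison with cells of intact KEAP1.

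**Figure D1:**
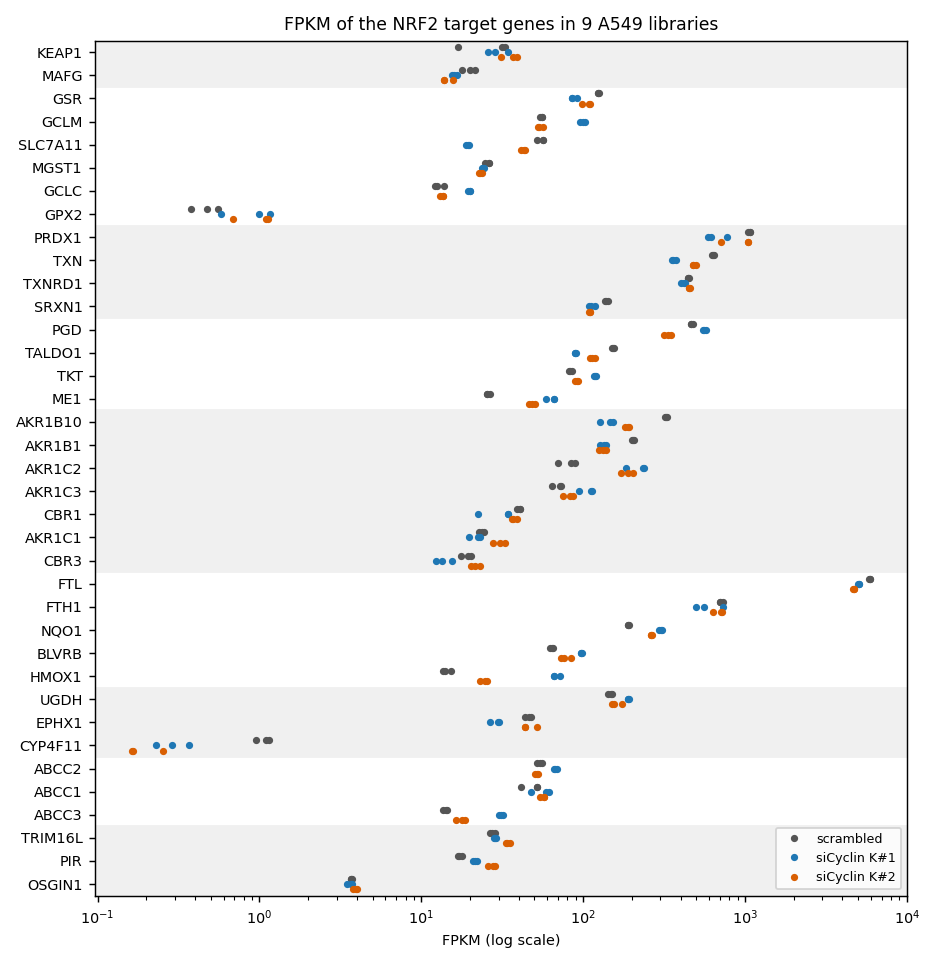
FPKM (log axis) of the 37 NRF2 genes in each of the 9 libraries, 1 point per library, with rows ordered by role (shaded bands) and by scrambled level. FTL is the highest gene at a scrambled mean of 5897 FPKM and GPX2 and CYP4F11 are the lowest; the coloured points part from the scrambled points to the right for HMOX1, AKR1C2 and ME1 and to the left for CYP4F11, SLC7A11 and AKR1B10.

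The core of the antioxidant response element, TGACNNNGC on either strand, was looked for in the RefSeq promoters, from 250 bases before to 50 bases after each start (GRCh38.p14). Of the 29 genes of the list with a promoter entry, 11 held at least 1 match (37.9%), against 16.1% of the 27305 genes with an entry. The 29 include NFE2L2 and GSTM3, neither of which held a match. Sites outside this window were not looked for, so a gene without a match may hold an element elsewhere. Counted by promoter, 12 of 39 of the list's promoters (30.8%) held a match, against 13.3% of all 35116. The following 25-base sites are shown because their genes share the core and yet took different courses below. Capitals mark the matched core, and the strand is the one printed.
GCLM, chr1:93909448-93909472, plus strand: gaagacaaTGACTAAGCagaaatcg
KEAP1, chr19:10502786-10502810, plus strand: ggtcaccaTGACTAAGCagagccgg
ME1, chr6:83431172-83431196, minus strand: tcctgccaTGACTCAGCgcttctcg
PIR, chrX:15493291-15493315, plus strand: cctcaccgTGACTCAGCgcttcgcg
GPX2, chr14:64942851-64942875, plus strand: ccccaggaTGACTTAGCaaaaacag
TXNRD1, chr12:104215672-104215696, plus strand: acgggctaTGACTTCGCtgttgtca
PGD, chr1:10398855-10398879, minus strand: cacctagaTGACATTGCcccggcga
CYP4F11, chr19:15935007-15935031, plus strand: gctcagggTGACACAGCatgggcac
GCLM and KEAP1 hold the same core letters, and so do ME1 and PIR, whose core also holds TGACTCA, the letters of an AP-1 site. The other genes with a match were CBR1, EPHX1 and MGST1. HMOX1, AKR1B10, SLC7A11 and ABCC3 had no promoter entry, and a match is a description of letters, not a bound site.

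Depletion of Cyclin K moved the NRF2 genes in both directions, and the list did not shift as a block. Over both siRNAs together 9 of the 37 genes were higher, 9 were lower and 19 did not pass (limma on log2(FPKM + 0.1), Benjamini-Hochberg adjusted p under 0.05), where 28.6% of all tested genes passed, 17% higher and 11.5% lower. The median log2 fold change was 0.016 over the list and 0.062 over all tested genes. HMOX1, AKR1C2 and ME1 had the largest rises, and CYP4F11 and AKR1B10 the largest falls. With siCyclin K#1, 15 genes were higher and 15 lower, against 44.8% of all tested genes called (26.8% higher, 18.1% lower), and the medians were -0.037 and 0.10. With siCyclin K#2, 11 were higher and 12 lower, against 34.9% called (19.8% higher, 15.2% lower), and the medians were 0.030 and 0.014.

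Genes of high level were called more often. Among the 539 tested genes at or above the list's median scrambled level, 51.2% were called over both siRNAs, 78.1% with siCyclin K#1 and 70.7% with siCyclin K#2. Of the 19 NRF2 genes above the same limit, 57.9%, 94.7% and 68.4% were called. Over both siRNAs 213 of the high genes were lower and 63 higher, and of the 19 NRF2 genes 7 were lower and 4 higher.

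At a fold change over 3 with an unadjusted p under 0.01, the rule of the study's methods, few NRF2 genes were called. Over both siRNAs it called CYP4F11, lower, alone among the 37, against 2.29% of all tested genes. With siCyclin K#1 it called HMOX1, higher, against 4.67%, and with siCyclin K#2 CYP4F11 again, against 1.94%. Most changes of the list were thus under 3-fold. At a fold change over 2 with the same p, 5 NRF2 genes were called over both siRNAs against 8.13% of all tested genes, 7 with siCyclin K#1 against 13.4%, and 2 with siCyclin K#2 against 7.23%.

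The libraries behind these calls can be seen without a model. In 10 genes all 6 siCyclin K libraries lay above all 3 scrambled libraries, in 12 they lay below, and in 15 the ranges overlapped, while 32.6% of all tested genes had ranges apart, 18.9% above and 13.7% below. An exact two-sided permutation test over the 9 libraries cannot give a p under 0.0119, and 12 of the 37 genes reached it, against 22.8% of all tested genes. Replicates were close, with a median ratio of 1.06 between the highest and the lowest scrambled library. In KEAP1, GPX2, CYP4F11 and CBR1 this ratio passed 1.5 in at least 1 group.

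Each siRNA was also set against the scrambled libraries, which both comparisons share, so that their calls are not independent. In 9 genes the call was higher with each siRNA, namely HMOX1, NQO1, BLVRB, AKR1C2, ME1, TKT, ABCC3, GPX2 and PIR. In 10 it was lower with each, namely SLC7A11, GSR, TXN, SRXN1, TALDO1, AKR1B1, AKR1B10, FTL, CYP4F11 and MAFG. On the FPKM as deposited PGD alone was called in opposite directions. A further 10 genes were called with siCyclin K#1 and not siCyclin K#2, 3 with siCyclin K#2 and not siCyclin K#1, and 4 with neither. Of all tested genes, 15.4% were higher with each siRNA, 10.3% lower with each and 1.82% called in opposite directions, while 17.4% were called with siCyclin K#1 and not siCyclin K#2 and 7.5% the other way round.

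**Figure D2:**
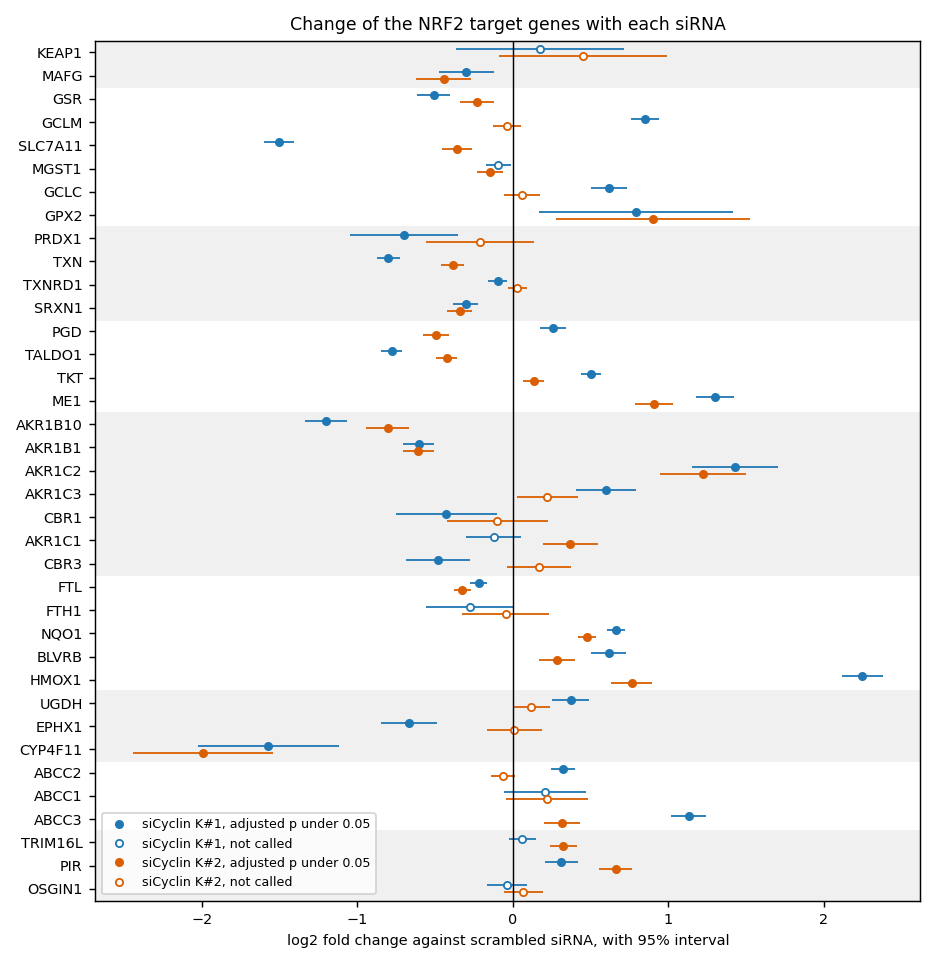
Log2 fold change of each NRF2 gene against scrambled siRNA (x axis, on log2(FPKM + 0.1), with 95% interval) for siCyclin K#1 (blue) and siCyclin K#2 (orange), with rows in order of role. Filled points had an adjusted p under 0.05; HMOX1 with siCyclin K#1 lies farthest right at 2.25 and CYP4F11 with siCyclin K#2 farthest left at -1.99.

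The regulators on the list gave a fall of MAFG and no call for KEAP1. The KEAP1 FPKM (ENSG00000079999, chromosome 19, 10486120 to 10503741, minus strand, GRCh38) was 17.0, 31.5 and 32.7 for scrambled siRNA, 34.4, 28.4 and 25.8 for siCyclin K#1, and 31.2, 38.8 and 37.1 for siCyclin K#2. The first scrambled library was low and set most of the spread, the other 2 scrambled libraries lay among the siCyclin K values, and the ranges overlapped. This was a log2 fold change of 0.31 ± 0.21 (SE) over both siRNAs, with a 95% interval of -0.16 to 0.78 (limma adjusted p = 0.303), and without that library the value for siCyclin K#1 turned from 0.18 to -0.13, not called either way. MAFG (ENSG00000197063, chromosome 17, 81918270 to 81927714, minus strand), a small MAF partner of NRF2, had an FPKM of 19.9, 21.4 and 17.8 for scrambled siRNA, 16.6, 15.8 and 15.4 for siCyclin K#1, and 13.9, 13.8 and 15.7 for siCyclin K#2. Every siCyclin K library lay below every scrambled library, and the log2 fold change was -0.30 with siCyclin K#1 and -0.45 with siCyclin K#2 (limma adjusted p = 0.0118 and 0.00197). Its call over both siRNAs was lost without the second scrambled library (adjusted p = 0.0527). MAFG overlaps the antisense gene AC145207.8, whose reads cannot be told apart where strand was not counted.

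Among the genes of quinone reduction, haem breakdown and iron storage, HMOX1, NQO1 and BLVRB rose with each siRNA and FTL fell. HMOX1 (ENSG00000100292, chromosome 22, 35380361 to 35394214, plus strand) encodes haem oxygenase 1, which opens the haem ring and frees its iron. Its FPKM was 15.2, 14.0 and 13.7 for scrambled siRNA, 66.1, 72.2 and 66.5 for siCyclin K#1, and 25.4, 23.0 and 24.7 for siCyclin K#2. The 3 groups did not overlap, with siCyclin K#1 highest and siCyclin K#2 between it and scrambled. On the log2 scale the change was 2.25 ± 0.058 (SE) with siCyclin K#1 and 0.77 ± 0.058 with siCyclin K#2 (limma adjusted p = 2.9e-08 and 1.6e-05). Over both siRNAs it was 1.51 ± 0.42 (adjusted p = 0.0223), a call that was lost when any 1 scrambled library was left out (adjusted p up to 0.0745).

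NQO1 (ENSG00000181019, chromosome 16, 69706996 to 69726951, minus strand), the quinone reductase used as the standard readout of NRF2, had an FPKM of 189, 189 and 192 for scrambled siRNA, 301, 308 and 294 for siCyclin K#1, and 264, 266 and 263 for siCyclin K#2. The highest and the lowest library of a group differed by a ratio of at most 1.05, and the 3 groups were apart in the same order as for HMOX1. Against scrambled siRNA the log2 fold change was 0.66 ± 0.025 (SE) and 0.48 ± 0.025 (limma adjusted p = 1.47e-07 and 1.86e-06). NQO1 overlaps the antisense gene AC092115.2. BLVRB, a biliverdin and flavin reductase, had 63.9 ± 1.54 FPKM in scrambled cells, 98.0 ± 0.615 in siCyclin K#1 cells and 78.0 ± 5.97 in siCyclin K#2 cells (SD, n = 3), log2 fold changes of 0.62 and 0.28, both called. FTL and FTH1 encode the light and heavy chains of ferritin, the iron store. FTL had 5897 ± 73.5 FPKM in scrambled cells, 5064 ± 50.4 in siCyclin K#1 cells and 4712 ± 41.6 in siCyclin K#2 cells, log2 fold changes of -0.22 and -0.32, both called, but after quantile normalization the siCyclin K#1 value was 0.022 and neither siRNA was called. FTH1 had 712 ± 18.0 FPKM in scrambled cells, 595 ± 121 in siCyclin K#1 cells and 690.2 ± 46.2 in siCyclin K#2 cells and was not called with either siRNA, its siCyclin K#1 libraries running from 495 to 729. Without the library at 729 it was called lower with siCyclin K#1 (limma adjusted p = 0.00164), as it was after median-ratio rescaling (0.0249). Ferritin genes have many pseudogenes, which makes their values uncertain.

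The glutathione genes split by enzyme. GCLC and GCLM encode the catalytic and the modifier subunit of glutamate-cysteine ligase, which makes the first bond of glutathione, SLC7A11 the cystine importer xCT, which supplies its cysteine, and GSR the reductase that restores oxidised glutathione. With siCyclin K#1, 3 of the 6 glutathione genes were higher, 2 lower and 1 not called, and with siCyclin K#2, 1 was higher, 3 were lower and 2 were not called. GCLC (ENSG00000001084, chromosome 6, 53497341 to 53616970, minus strand) had an FPKM of 12.2, 12.5 and 13.8 for scrambled siRNA, 20.0, 19.4 and 19.9 for siCyclin K#1, and 13.0, 13.6 and 13.6 for siCyclin K#2. The siCyclin K#1 libraries lay above all others and the siCyclin K#2 libraries within the scrambled range. In the fit the log2 fold change was 0.62 ± 0.051 (SE) with siCyclin K#1 and 0.062 ± 0.051 with siCyclin K#2 (limma adjusted p = 1.43e-05 and 0.4). The feature of GCLC also holds AL033397.1.

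GCLM (ENSG00000023909, chromosome 1, 93885205 to 93909456, minus strand) had an FPKM of 55.9, 54.1 and 56.0 for scrambled siRNA, 100.3, 103 and 96.1 for siCyclin K#1, and 56.3, 52.3 and 53.2 for siCyclin K#2. Again only the siCyclin K#1 libraries stood apart, above the scrambled ones, while those of siCyclin K#2 overlapped with them. The log2 fold change was 0.85 ± 0.039 (SE) and -0.038 ± 0.039 (limma adjusted p = 4.75e-07 and 0.515), with a 95% interval of -0.13 to 0.051 for siCyclin K#2. SLC7A11 (ENSG00000151012, chromosome 4, 138164097 to 138242349, minus strand) went the other way, with an FPKM of 56.9, 52.1 and 56.2 for scrambled siRNA, 18.9, 19.3 and 19.7 for siCyclin K#1, and 41.5, 43.7 and 43.4 for siCyclin K#2. All 3 groups were apart, and siCyclin K#1 was lowest. This was a log2 fold change of -1.50 ± 0.042 (SE) and -0.36 ± 0.042 (limma adjusted p = 4.05e-08 and 0.000192). Over both siRNAs, fitted as 2 groups, it was -0.93 ± 0.32, with an adjusted p of 0.0553 that missed the threshold. It passed when any 1 siCyclin K#2 library was left out (limma adjusted p up to 0.0407). The same value passed when genes had to average 1 FPKM (0.0437) and with 3 groups in the fit (2.16e-07).

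GSR had 124 ± 1.67 FPKM in scrambled cells, 87.2 ± 3.39 in siCyclin K#1 cells and 106 ± 6.33 in siCyclin K#2 cells (SD, n = 3), a fall with each siRNA (log2 fold change -0.51 and -0.23), whose call over both siRNAs was lost without the first or the second scrambled library (adjusted p up to 0.0579). MGST1, a membrane-bound glutathione transferase, had 25.7 ± 0.891 FPKM in scrambled cells, 24.1 ± 0.373 in siCyclin K#1 cells and 23.2 ± 0.426 in siCyclin K#2 cells, called lower with siCyclin K#2 alone (log2 fold change -0.14), a call lost without the variance trend (adjusted p = 0.0772). With siCyclin K#1 it was called lower without the second scrambled library and under either rescaling. GPX2 (ENSG00000176153, chromosome 14, 64939152 to 64942905, minus strand), a glutathione peroxidase, was the lowest gene of the list and rested on few reads, 28, 18 and 23 reads for scrambled siRNA, 56, 27 and 49 for siCyclin K#1, and 33, 55 and 54 for siCyclin K#2. Its FPKM was 0.553, 0.377 and 0.473 for scrambled siRNA, 1.15, 0.575 and 0.992 for siCyclin K#1, and 0.685, 1.10 and 1.13 for siCyclin K#2. Every siCyclin K library lay above every scrambled library, the lowest of them by little. On the log2 scale the change was 0.79 ± 0.27 (SE) and 0.90 ± 0.27 (limma adjusted p = 0.0433 and 0.0319), and these calls did not hold well. Of 18 alternatives, 14 ended the siCyclin K#1 call (adjusted p up to 0.139), among them a pseudocount of 1 and both rescalings, and 6 the siCyclin K#2 call (up to 0.101). The call over both siRNAs was lost without the second or the third scrambled library (limma adjusted p = 0.101 and 0.0688).

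The thioredoxin genes went down or stayed, and none of the 4 was called higher in any comparison with scrambled siRNA as the FPKM were deposited. With siCyclin K#1 all 4 were called lower, and with siCyclin K#2 TXN and SRXN1 were. Of all tested genes, 18.1% and 15.2% were called lower. All 4 lay above the list's median scrambled level, where falls were common. Of the 539 tested genes as high, 326 were lower and 95 higher with siCyclin K#1. With siCyclin K#2, 270 were lower and 111 higher. TXN, thioredoxin itself, had 633 ± 12 FPKM in scrambled cells, 364 ± 12.6 in siCyclin K#1 cells and 484 ± 12.1 in siCyclin K#2 cells (SD, n = 3), with log2 fold changes of -0.80 and -0.39 (limma adjusted p = 2.7e-07 and 3.17e-05). SRXN1 (ENSG00000271303, chromosome 20, 646615 to 653370, minus strand), sulfiredoxin, which repairs overoxidised peroxiredoxins, had an FPKM of 138, 137 and 143 for scrambled siRNA, 118, 108 and 112 for siCyclin K#1, and 109.6, 109 and 111 for siCyclin K#2. Both siRNAs put it below the scrambled libraries by a like amount, with log2 fold changes of -0.30 ± 0.036 (SE) and -0.34 ± 0.036 (limma adjusted p = 0.00013 and 0.000101). Its feature also holds SCRT2 and AL121758.1.

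TXNRD1 (ENSG00000198431, chromosome 12, 104215779 to 104350305, plus strand), thioredoxin reductase 1, changed little. Its FPKM was 442, 443 and 450.0 for scrambled siRNA, 403, 417 and 428 for siCyclin K#1, and 461, 450.4 and 452 for siCyclin K#2. The siCyclin K#1 libraries lay just below the scrambled ones and the siCyclin K#2 libraries at or just above them. Against scrambled siRNA the log2 fold change was -0.10 ± 0.028 (SE) with siCyclin K#1 (limma adjusted p = 0.0179) and 0.030 ± 0.028 with siCyclin K#2 (adjusted p = 0.461), and quantile normalization turned the siCyclin K#1 value to 0.12, called higher (adjusted p = 0.0226), with siCyclin K#2 called higher as well (adjusted p = 0.00152). Without the third scrambled library or the first siCyclin K#1 library the fall with siCyclin K#1 was lost too. It was also lost with no filter on low values and without the variance trend (limma adjusted p = 0.0651 and 0.167). PRDX1, a peroxiredoxin that thioredoxin recharges, had 1063 ± 17.4 FPKM in scrambled cells, 659 ± 99.2 in siCyclin K#1 cells and 933 ± 191 in siCyclin K#2 cells (SD, n = 3). For siCyclin K#1 the change was -0.70 on the log2 scale (limma adjusted p = 0.00516, and 0.0694 after quantile normalization), while 1 siCyclin K#2 library stood at 712 against 1038 and 1048 in the other 2.

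The NADPH genes were all called with each siRNA, but not one way. Of all tested genes, 44.8% were called with siCyclin K#1 and 34.9% with siCyclin K#2. Of the 539 tested genes at or above the list's median scrambled level, 78.1% and 70.7% were. PGD, TALDO1 and TKT were as high, and ME1 was not. PGD, TALDO1 and TKT belong to the pentose phosphate pathway, PGD in its oxidative branch, which yields NADPH, and TALDO1 and TKT in the branch that recycles sugars, while ME1, cytosolic malic enzyme, makes NADPH from malate. ME1 (ENSG00000065833, chromosome 6, 83210389 to 83431071, minus strand) had an FPKM of 25.3, 25.3 and 26.5 for scrambled siRNA, 65.9, 59.0 and 65.7 for siCyclin K#1, and 50.6, 46.1 and 48.5 for siCyclin K#2. Every siCyclin K library lay well above the scrambled ones, and siCyclin K#1 above siCyclin K#2. In the fit the log2 fold change was 1.3 ± 0.053 (SE) and 0.91 ± 0.053 (limma adjusted p = 2.58e-07 and 3.72e-06). TALDO1 had 153 ± 1.38 FPKM in scrambled cells, 89.0 ± 0.674 in siCyclin K#1 cells and 114 ± 3.98 in siCyclin K#2 cells (SD, n = 3), a fall with each siRNA (log2 fold change -0.78 and -0.43). TKT had 83.4 ± 1.74 FPKM in scrambled cells, 118 ± 1.74 in siCyclin K#1 cells and 91.5 ± 2.20 in siCyclin K#2 cells, a rise with each (log2 fold change 0.50 and 0.13), although the siCyclin K#2 call was lost after median-ratio rescaling and without the variance trend (adjusted p up to 0.0874).

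PGD (ENSG00000142657, chromosome 1, 10398592 to 10420144, plus strand) was the gene called in opposite directions. Its FPKM was 461, 479 and 467 for scrambled siRNA, 557, 550.2 and 573 for siCyclin K#1, and 348, 318 and 333 for siCyclin K#2. The siCyclin K#1 libraries lay above and the siCyclin K#2 libraries below the scrambled ones, with no overlap. The log2 fold change was 0.26 ± 0.036 (SE) with siCyclin K#1 (limma adjusted p = 0.000435) and -0.49 ± 0.036 with siCyclin K#2 (limma adjusted p = 1.32e-05). Pooling both siRNAs gave -0.12 ± 0.21.

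The aldo-keto and carbonyl reductases, which reduce aldehydes, ketones and steroids, went in both directions. AKR1B1 and AKR1B10 lie near each other on chromosome 7 and both fell. AKR1B10 (ENSG00000198074, chromosome 7, 134527592 to 134541408, plus strand) had an FPKM of 321, 327 and 332 for scrambled siRNA, 152, 128 and 146 for siCyclin K#1, and 191, 181 and 188 for siCyclin K#2. The 3 groups were apart, with scrambled highest and siCyclin K#1 lowest. This was a log2 fold change of -1.20 ± 0.059 (SE) and -0.81 ± 0.059 (limma adjusted p = 7.12e-07 and 1.32e-05), and the feature also holds AKR1B15. AKR1B1, aldose reductase, had 203 ± 3.11 FPKM in scrambled cells, 133 ± 5.72 in siCyclin K#1 cells and 133 ± 6.65 in siCyclin K#2 cells (SD, n = 3), log2 fold changes of -0.60 and -0.61, both called.

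On chromosome 10, AKR1C1, AKR1C2 and AKR1C3, hydroxysteroid dehydrogenases encoded side by side, took 3 courses. AKR1C2 (ENSG00000151632, chromosome 10, 4987400 to 5018031, minus strand) had an FPKM of 84.1, 69.7 and 89.3 for scrambled siRNA, 239, 185 and 233 for siCyclin K#1, and 203, 172 and 191 for siCyclin K#2. Every siCyclin K library lay far above every scrambled library, and the siRNAs overlapped with each other. On the log2 scale the change was 1.43 ± 0.12 (SE) and 1.22 ± 0.12 (limma adjusted p = 1.75e-05 and 7.56e-05). AKR1C3 (ENSG00000196139, chromosome 10, 5035354 to 5107686, plus strand) had an FPKM of 72.0, 64.4 and 73.4 for scrambled siRNA, 113, 94.0 and 112 for siCyclin K#1, and 86.9, 75.3 and 82.6 for siCyclin K#2. All siCyclin K libraries lay above the scrambled ones, those of siCyclin K#2 by little. Against scrambled siRNA the log2 fold change was 0.60 ± 0.085 (SE, limma adjusted p = 0.000438) and 0.22 ± 0.085 (0.0773). The siCyclin K#2 value was called without the second siCyclin K#1 library (adjusted p = 0.0349) and with the replicate number in the fit (0.00336). Its call over both siRNAs, at 0.41, was lost under 10 alternatives, with adjusted p up to 0.151.

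AKR1C1 (ENSG00000187134, chromosome 10, 4963253 to 4983283, plus strand) had an FPKM of 23.6, 22.7 and 24.4 for scrambled siRNA, 23.1, 19.6 and 22.4 for siCyclin K#1, and 33.0, 27.9 and 30.8 for siCyclin K#2. Only the siCyclin K#2 libraries stood above the scrambled range, and siCyclin K#1 overlapped with it. In the fit the log2 fold change was -0.12 ± 0.078 (SE, limma adjusted p = 0.246) and 0.37 ± 0.078 (0.00555). After median-ratio rescaling the siCyclin K#1 value was -0.24 and called lower (adjusted p = 0.0392), so that AKR1C1 too was then called in opposite directions. The AKR1C genes are near-identical in sequence, and the way the counting shared reads between them makes each value uncertain. In all 3, the second library of each group was the lowest. The carbonyl reductases CBR1 and CBR3, neighbours on chromosome 21, were called lower with siCyclin K#1 alone. CBR3 had 19.2 ± 1.32 FPKM in scrambled cells, 13.7 ± 1.65 in siCyclin K#1 cells and 21.5 ± 1.26 in siCyclin K#2 cells (SD, n = 3), a log2 fold change of -0.48 with siCyclin K#1. CBR1 had 40.0 ± 0.986 FPKM in scrambled cells, 30.3 ± 6.79 in siCyclin K#1 cells and 37.4 ± 1.32 in siCyclin K#2 cells, a log2 fold change of -0.43 with siCyclin K#1. That call was lost under 10 alternatives, with adjusted p up to 0.0927. Among its siCyclin K#1 libraries 1 stood at 22.5 beside 34.2 in each of the other 2, and the call held without the library at 22.5.

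**Figure D3:**
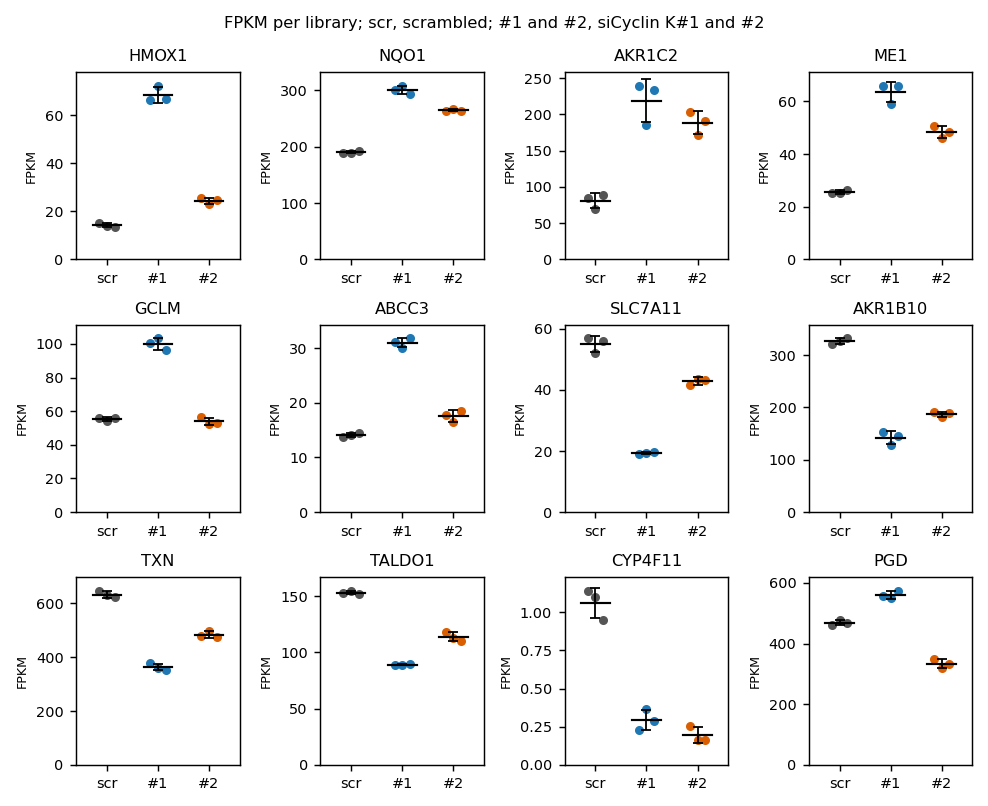
FPKM (y axis, from 0) of 12 NRF2 genes in each library of the scrambled (scr), siCyclin K#1 and siCyclin K#2 groups, with the mean and SD (n = 3) as black bars. HMOX1, NQO1, AKR1C2 and ME1 lie higher with each siRNA, GCLM stands apart with siCyclin K#1 alone, SLC7A11, AKR1B10, TXN, TALDO1 and CYP4F11 lie lower, and PGD lies above scrambled with siCyclin K#1 and below it with siCyclin K#2.

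Of the detoxification enzymes, CYP4F11 fell the most of the list. CYP4F11 (ENSG00000171903, chromosome 19, 15912367 to 15934867, minus strand), a cytochrome P450 that hydroxylates fatty acids, had 155, 141 and 124 reads for scrambled siRNA, 30, 46 and 38 for siCyclin K#1, and 33, 22 and 21 for siCyclin K#2. Its FPKM was 1.14, 1.10 and 0.949 for scrambled siRNA, 0.230, 0.365 and 0.286 for siCyclin K#1, and 0.255, 0.164 and 0.164 for siCyclin K#2. All 6 siCyclin K libraries lay far below all 3 scrambled libraries, and the siRNAs overlapped with each other. The log2 fold change was -1.57 ± 0.20 (SE) and -1.99 ± 0.20 (limma adjusted p = 0.000205 and 7.58e-05), which understates the change of so low a gene, and over both siRNAs or with siCyclin K#2 it passed 3-fold with the pseudocount of 0.1 and not with 0.5 or 1. EPHX1, microsomal epoxide hydrolase, had 46.0 ± 2.07 FPKM in scrambled cells, 28.9 ± 1.98 in siCyclin K#1 cells and 46.5 ± 4.81 in siCyclin K#2 cells (SD, n = 3), a fall with siCyclin K#1 (log2 fold change -0.67) and a value of 0.010 with siCyclin K#2, not called. UGDH, which makes the sugar donor for glucuronidation, had 147 ± 4.28 FPKM in scrambled cells, 190.3 ± 2.52 in siCyclin K#1 cells and 159.9 ± 12.6 in siCyclin K#2 cells, a rise with siCyclin K#1 (log2 fold change 0.37) and 0.12 with siCyclin K#2, called only without its second library (limma adjusted p = 0.0399) or after quantile normalization.

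The exporters ABCC1, ABCC2 and ABCC3, which pump glutathione and glucuronide conjugates out of the cell, were called higher or not at all on the FPKM as deposited. ABCC3 (ENSG00000108846, chromosome 17, 50634777 to 50692252, plus strand) had an FPKM of 13.7, 14.1 and 14.4 for scrambled siRNA, 31.1, 30.1 and 31.8 for siCyclin K#1, and 17.8, 16.4 and 18.6 for siCyclin K#2. The 3 groups were apart in the order scrambled, siCyclin K#2, siCyclin K#1. This was a log2 fold change of 1.13 ± 0.050 (SE) and 0.32 ± 0.050 (limma adjusted p = 4.18e-07 and 0.00119). Over both siRNAs it was 0.72 ± 0.23 (limma adjusted p = 0.0419), a call lost under 10 alternatives, with adjusted p up to 0.121. ABCC2 had 53.9 ± 1.62 FPKM in scrambled cells, 67.3 ± 1.78 in siCyclin K#1 cells and 51.6 ± 1.02 in siCyclin K#2 cells (SD, n = 3), a rise with siCyclin K#1 (log2 fold change 0.32) and -0.062 with siCyclin K#2, not called as deposited and called lower at -0.11 after median-ratio rescaling (adjusted p = 0.0263). ABCC1 had 48.5 ± 6.30 FPKM in scrambled cells, 56.1 ± 7.55 in siCyclin K#1 cells and 56.2 ± 1.99 in siCyclin K#2 cells and was not called, 1 scrambled library standing at 41.3 below the other 2. Without the first siCyclin K#1 library, at 47.6, it was called higher with siCyclin K#1 (limma adjusted p = 0.0354).

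PIR, TRIM16L and OSGIN1 complete the list. PIR, an iron-binding nuclear protein, had 17.3 ± 0.542 FPKM in scrambled cells, 21.5 ± 0.670 in siCyclin K#1 cells and 27.4 ± 1.3 in siCyclin K#2 cells (SD, n = 3) and rose with each siRNA (log2 fold change 0.31 and 0.66). TRIM16L had 27.4 ± 1.06 FPKM in scrambled cells, 28.6 ± 0.356 in siCyclin K#1 cells and 34.4 ± 1.03 in siCyclin K#2 cells and was called higher with siCyclin K#2 alone (log2 fold change 0.33). TRIM16L shares its feature with AC026271.4 and much of its sequence with TRIM16. OSGIN1, an inhibitor of growth induced by oxidative stress, had 3.72 ± 0.0352 FPKM in scrambled cells, 3.62 ± 0.142 in siCyclin K#1 cells and 3.90 ± 0.107 in siCyclin K#2 cells and was not called, with a 95% interval of -0.15 to 0.19 over both siRNAs. After quantile normalization it was called lower with siCyclin K#1, at -0.21 (limma adjusted p = 0.0204).

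Set directly against each other, the siRNAs differed over much of the list. In the limma fit of 3 groups 13 of the 37 genes were higher with siCyclin K#1 and 12 higher with siCyclin K#2 (adjusted p under 0.05), where 29.4% of all tested genes passed, 17.1% on the siCyclin K#1 side and 12.3% on the other. The median difference was 0.0037 over the list and 0.084 over all tested genes, and 62.0% of the 539 high genes passed, beside 78.9% of the 19 NRF2 genes as high. CCNK itself differed by -0.056 on the log2 scale, with a 95% interval of -0.28 to 0.17. The largest differences were HMOX1, at 1.48 ± 0.058 (SE), and SLC7A11, at -1.15 ± 0.042 (limma adjusted p = 7.9e-07 and 5.43e-07). GCLM, ABCC3, PGD and GCLC followed on the siCyclin K#1 side, from 0.89 to 0.56. EPHX1, CBR3, AKR1C1 and PRDX1 followed on the siCyclin K#2 side, from -0.68 to -0.49. No gene of the list passed a fold change over 3 here with an unadjusted p under 0.01, against 1.53% of all tested genes, and 2 passed a fold change over 2, against 5.36%.

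A few genes gave like values with each siRNA on the FPKM as deposited. AKR1B1 differed by 0.0037 (95% interval -0.10 to 0.10), SRXN1 by 0.037 (-0.044 to 0.12) and MGST1 by 0.052 (-0.030 to 0.14). After quantile normalization the SRXN1 difference was 0.16 and was called (limma adjusted p = 0.00668). For GPX2, KEAP1 and CYP4F11 the intervals were too wide to say so, that of GPX2 running from -0.73 to 0.51.

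A stretch that matches the seed of siCyclin K#1, the bases by which an siRNA can pair with other mRNAs, was found in the longest annotated 3′ UTR of 3 of the 37 genes, AKR1C1, PIR and SLC7A11 (8.11%), against 10.5% of the 11460 tested genes with an annotated 3′ UTR. The matching stretch for siCyclin K#2 was in UGDH and TRIM16L (5.41% against 13.15%). The 3′ UTRs of the list were shorter, with a median of 966 bases against 1330.5. The 11460 also leave out genes on joined features, which the list keeps. In the direct comparison AKR1C1, PIR and SLC7A11 had each a lower value in siCyclin K#1 cells, and UGDH was lower and TRIM16L higher in siCyclin K#2 cells. Against scrambled siRNA, siCyclin K#1 gave a call lower for SLC7A11 (-1.50), a call higher for PIR (0.31) and no call for AKR1C1 (-0.12). With siCyclin K#2, UGDH was not called (0.12) and TRIM16L was called higher (0.33). Whether these stretches have a part in the differences was not tested.

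**Figure D4:**
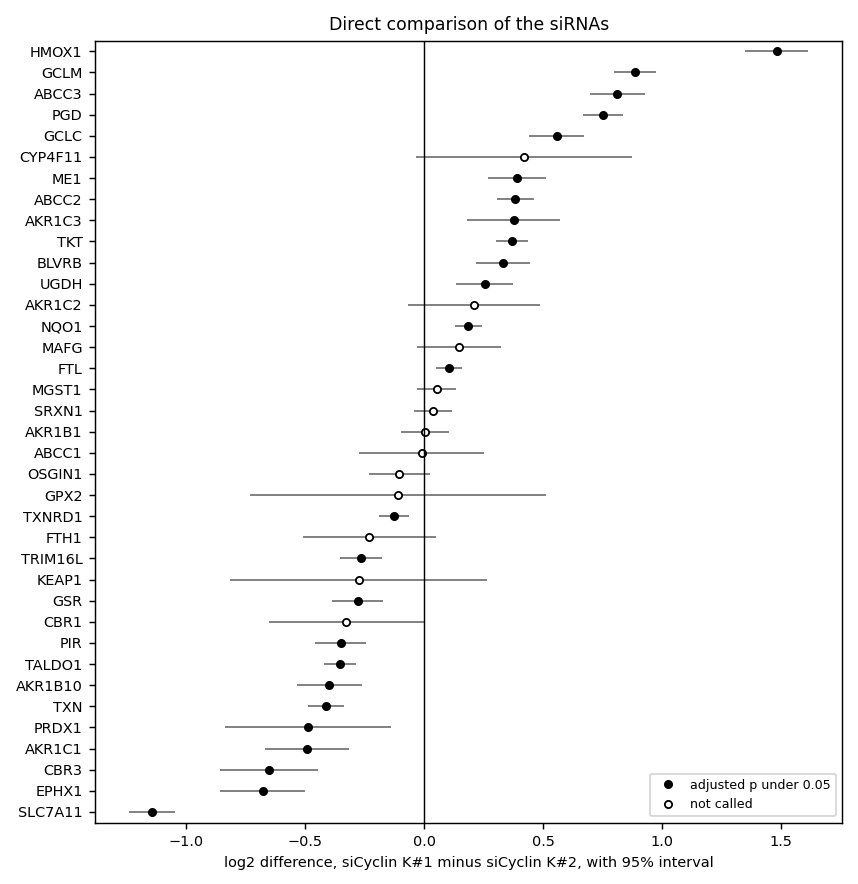
Log2 difference between siCyclin K#1 and siCyclin K#2 (x axis, siCyclin K#1 minus siCyclin K#2, with 95% interval) for the 37 NRF2 genes in order of size. Filled points had an adjusted p under 0.05; HMOX1 lies highest at 1.48, SLC7A11 lowest at -1.15, and AKR1B1 and ABCC1 sit close to 0.

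Other genes of the pathway, a list of 80 regulators, paralogs and further targets, were counted beside the 37. Of these, 73 were tested, and over both siRNAs 17 were higher and 10 lower (37.0% against 28.6% of all tested genes, limma adjusted p under 0.05), or 14 and 13 after median-ratio rescaling. The median log2 fold change was 0.10. ALDH3A1, an aldehyde dehydrogenase, rose the most, with an FPKM of 57.0, 63.6 and 59.7 for scrambled siRNA, 296, 270.1 and 281 for siCyclin K#1, and 171, 161 and 163 for siCyclin K#2. Its groups were apart, siCyclin K#1 highest, and the log2 fold change over both siRNAs was 1.84 ± 0.22 (SE, limma adjusted p = 0.000225).

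CYP4F3, a relative of CYP4F11 in the same gene family, had an FPKM of 2.29, 0.956 and 2.38 for scrambled siRNA, 5.62, 5.66 and 5.68 for siCyclin K#1, and 4.66, 3.41 and 3.60 for siCyclin K#2, higher in every siCyclin K library where CYP4F11 was lower, and its log2 fold change was 1.37 ± 0.29 (SE, limma adjusted p = 0.00579). SESN2, a stress-induced sestrin, had 3.12 ± 0.210 FPKM in scrambled cells, 14.2 ± 0.307 in siCyclin K#1 cells and 4.62 ± 0.455 in siCyclin K#2 cells (SD, n = 3), a log2 fold change of 1.35 (limma adjusted p = 0.0492). That call lies close to the threshold, with SESN2 at 4.55-fold of scrambled for siCyclin K#1 and 1.48-fold for siCyclin K#2. Calls of single genes of this second list were not tried under the alternatives. NFE2L1, the paralog of NFE2L2, had an FPKM of 16.5, 17.1 and 15.3 for scrambled siRNA, 39.4, 41.3 and 31.4 for siCyclin K#1, and 45.8, 40.0 and 28 for siCyclin K#2. All siCyclin K libraries were above the scrambled ones, with no order between the siRNAs, and the log2 fold change was 1.18 ± 0.14 (SE, limma adjusted p = 0.00025). PRDX4, a peroxiredoxin of the endoplasmic reticulum, had 24.7 ± 1.99 FPKM in scrambled cells, 59.0 ± 9.67 in siCyclin K#1 cells and 44.6 ± 6.16 in siCyclin K#2 cells and a log2 fold change of 1.04 (limma adjusted p = 0.000871). PTGR1, a reductase of prostaglandins and alkenals, fell, with 101 ± 1.79 FPKM in scrambled cells, 37.1 ± 1.40 in siCyclin K#1 cells and 50.4 ± 0.437 in siCyclin K#2 cells and a log2 fold change of -1.22 (limma adjusted p = 0.000119).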

How the data were processed

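RNA of 9 A549 libraries was sequenced in pairs (HiSeq X), 3 libraries a group by the sample labels. StringTie 1.3.3b gave the FPKM of each feature that the authors deposited, 1 file a library, and the aligner is not given in the sources used here. Of 56252 features, 25125 had no reference gene and were left out, and 1344 joined more than 1. Whether strand was used in counting is not stated. Rows of a gene were summed (47 genes), and the 21048 genes that reached 0.1 FPKM in 3 or more libraries went, as log2(FPKM + 0.1), into limma 3.58.1 run under R 4.3.3 (eBayes with trend, Benjamini-Hochberg), which understates changes of low genes. Both siRNAs together were fitted as 2 groups, the other comparisons as 3 groups that share a spread, and each comparison with scrambled siRNA shares the scrambled libraries. Tested on simulated data for both siRNAs (21048 genes), 177 of 200 genes changed by 1 on the log2 scale were recovered. In the same data 11 unchanged genes were called. Recovery of genes that differ between the siRNAs was not tested. In the real data the SE over both siRNAs was 0.32 for SLC7A11 and 0.42 for HMOX1. For each siRNA, in the fit of 3 groups, it was 0.042 and 0.058.

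Reads were recovered from the FPKM steps with GENCODE exon lengths (88.97% to 89.9% of values whole within 0.05), and intervals here cover these libraries only. The members and lists were chosen with earlier results of these data known. Values in every library were given for the regulators, for preset genes of each pathway, for members with an adjusted p under 0.05 and an absolute log2 fold change of at least 1 in any comparison, for members called in opposite directions, and for those with a mean FPKM under 1. Other pathway genes were named at the same limits over both siRNAs, at most 5 a direction. Exact permutation tests used scipy 1.17.1. Promoters came from RefSeq (GRCh38.p14). The alternatives were other pseudocounts, filters, scalings, variance models, thresholds, rows per gene and groups in the fit, a replicate block, and leaving out each library.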

Additional observations from a re-analysis of the deposited data

Results flagged for a closer look

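The siRNAs differed from each other in 25 of the 37 NRF2 genes by a test of the difference itself (limma, adjusted p under 0.05, siCyclin K#1 minus siCyclin K#2 on the log2 scale), 13 of them higher with siCyclin K#1 and 12 higher with siCyclin K#2. This is 67.6% of the list, against 29.4% of all tested genes and 62.0% of the 539 tested genes at or above the list's median level. All 3 libraries of each siRNA enter every value.

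On the siCyclin K#1 side were HMOX1 at 1.48 and, in glutathione synthesis, GCLM at 0.888 and GCLC at 0.557. The exporters ABCC3 and ABCC2 differed by 0.813 and 0.383. Of the NADPH genes, PGD differed by 0.751, ME1 by 0.391 and TKT by 0.369. AKR1C3 differed by 0.376, BLVRB by 0.332, UGDH by 0.254, NQO1 by 0.186 and FTL by 0.104.

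On the siCyclin K#2 side SLC7A11 lay farthest, at -1.15, followed by EPHX1 at -0.68, CBR3 at -0.652 and AKR1C1 at -0.493. The thioredoxin genes PRDX1, TXN and TXNRD1 differed by -0.489, -0.413 and -0.128. AKR1B10 differed by -0.399, TALDO1 by -0.353, PIR by -0.352, GSR by -0.278 and TRIM16L by -0.265. The FTL difference was lost with no filter on low values, after median-ratio rescaling and without the variance trend (adjusted p 0.161 to 0.476), and the TXNRD1 difference after quantile normalization and without the variance trend (0.0814 to 0.112). The PRDX1 difference was lost under 11 alternatives, with adjusted p up to 0.132.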

How the results depend on the processing

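Of 2804 values over 148 results of single NRF2 genes, 2644 kept their direction and their side of the threshold, 44 passed it newly, 87 no longer passed and 29 turned. The cause of a change was not tested. With 3 groups in the fit, the count over both siRNAs went from 18 to 29 NRF2 genes and from 27 to 43 other pathway genes. That fit takes the difference between the siRNAs out of the spread of every gene. For the alternatives other than a fold change over 2, the share of all tested genes called is not given. Their counts here and below are thus no result about the list. At a fold change over 3, the count over both siRNAs was 0 with a pseudocount of 0.5 or 1 and when genes had to average 1 FPKM, and the siCyclin K#2 count was 0 under the same 3 settings. The siCyclin K#1 count at a fold change over 3 was 3 after median-ratio rescaling (SLC7A11 and CYP4F11 added) and 2 after quantile normalization, which also gave 1 gene between the siRNAs, HMOX1. Lowering the fold change to over 2 gave 5 genes for both siRNAs, 7 for siCyclin K#1, 2 for siCyclin K#2 and 2 between them.

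Leaving out 1 library at a time gave 12 to 22 genes over both siRNAs, 27 to 30 for siCyclin K#1, 22 to 24 for siCyclin K#2, 24 to 25 between them, and 21 to 29 other pathway genes. At a fold change over 3 it gave 1 to 2 over both siRNAs, with HMOX1 added without any 1 siCyclin K#2 library, 1 to 2 with siCyclin K#1, with CYP4F11 added without scrambled library 3 or siCyclin K#1 library 2, 1 with siCyclin K#2 and 0 between the siRNAs. CCNK stayed between -2.97 and -2.91. Over both siRNAs, TKT was newly called without any 1 siCyclin K#2 library, UGDH without library 2 or 3 and PRDX1 without library 1 or 3 (adjusted p up to 0.0487), and FTH1 between the siRNAs without siCyclin K#1 library 1 (0.0054).

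Over 11243 genes as a whole, same-numbered libraries did not vary together (mean correlation -0.00585, from -0.0711 to 0.0379), so the numbers were not taken as pairs. Single genes can differ from this, and in AKR1C1, AKR1C2 and AKR1C3 the second library of each group was the lowest. The replicate block gave 15 genes over both siRNAs, 29 for siCyclin K#1, 23 for siCyclin K#2, 25 between them and 22 other pathway genes, and CCNK at -2.94. It ended 6 calls, those of HMOX1, AKR1C3 and ABCC3 over both siRNAs, of GPX2 with each siRNA and of PRDX1 between them, and added 2, AKR1C3 with siCyclin K#2 (adjusted p = 0.00336) and AKR1C2 between the siRNAs (0.0216).

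Rescaling moved the median log2 fold change of all genes with siCyclin K#1 from 0.10 to 0.00089 (median-ratio) and -0.019 (quantile). Quantile normalization turned TXNRD1 over both siRNAs to 0.17 and with siCyclin K#1 to 0.12, FTL with siCyclin K#1 to 0.022, PGD over both to 0.074, OSGIN1 over both to -0.12 and with siCyclin K#2 to -0.036, and, with siCyclin K#2, GCLC to -0.0068, FTH1 to 0.030 and PRDX1 to 0.10, and ABCC1 between the siRNAs to 0.068. Median-ratio rescaling turned TXNRD1 and EPHX1 with siCyclin K#2 to -0.018 and -0.038, TRIM16L with siCyclin K#1 to -0.059, OSGIN1 over both to -0.066, and SRXN1, AKR1B1 and MGST1 between the siRNAs to -0.034, -0.068 and -0.019. Of these, only TXNRD1 and FTL with siCyclin K#1 were called as deposited. Leaving out a library turned uncalled values of KEAP1 with siCyclin K#1 (-0.13 to 0.34), OSGIN1 over both (-0.0012 to 0.039), FTH1 and EPHX1 with siCyclin K#2 (-0.082 to 0.0099 and -0.073 to 0.057), and AKR1B1, GPX2 and ABCC1 between the siRNAs (-0.034 to 0.038, -0.32 to 0.15 and -0.085 to 0.10). Depth limits GPX2 and CYP4F11, the genes with the fewest reads.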
